A study of Mus musculus with 6 samples.

Results

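Melan-a is an immortal line of pigmented melanocytes from female mice of strain C57BL/6. The genes that these cells expressed under control conditions were read from the 3 control arrays of a series of 6 arrays. The control cells had received siScr, a small interfering RNA used as the control of transfection, and the other 3 arrays, from cells given siDicer, were left aside. All cultures grew with TPA, a phorbol ester that activates protein kinase C, at 200 nM. Per the labels' protocols, 150000 cells were seeded in each well, 50 pmol of siRNA was delivered with a lipid reagent and magnetic particles, and total RNA was taken 24 hours after transfection and hybridised to Clariom D arrays. Replicate 1 came from cells at passage 47, replicate 2 from passage 54 and replicate 3 from passage 56, and their RNA integrity numbers were 10.0, 9.8 and 10.0. The submitters call them biological replicates. All 3 are cultures of 1 cell line, so the spread between them does not cover other lines or animals, and passage and replicate cannot be told apart.

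Melanocytes make pigment inside melanosomes, organelles related to lysosomes. Enzymes and ion transporters of the melanosome membrane build melanin from tyrosine, and a motor complex then carries the ripe organelles along actin to the cell edge. The lineage arises from the neural crest under transcription factors such as Pax3 and Mitf, shares genes with Schwann cells, and in culture depends on growth signals such as phorbol ester.

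The arrays measured 7486 genes that had a probe set with a single symbol in the platform annotation. RefSeq's gene table places 7397 of them on chromosomes 1 to 4, so what follows describes that share of the genome. Tyr, Dct, Pmel, Mitf, Sox10 and Dicer1 were not analysed here. Array medians were 4.64, 4.60 and 4.63 log2 units, and Pearson correlations between arrays, taken across all probe sets, ran from 0.995 to 0.997. As a gauge of signal without expression, 426 olfactory and vomeronasal receptor genes, a class used by sensory neurons of the nose, were taken. Their median level was 2.79 and their 95th percentile was 4.34, 4.26 and 4.31 on the 3 arrays. A gene was called above background when its mean distance from that percentile exceeded 0 at a Benjamini-Hochberg adjusted p under 0.05 (limma, one-sided). The probes of a probe set decide how bright it is, so distances from background are given gene by gene and do not order genes by transcript number.

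Of the 7486 genes, 4894 were called above the receptor background, or 65.4%, and 2334 lay below it on all 3 arrays. Counted without a test, 66.2% lay above it on every array, and of all 16383 probe sets, named or not, 53.2% were called (42.9% of those without a single symbol). Among protein-coding genes the share was 72.9%, and without the receptors 78.4%, or 3307 of 4217. A distance of at least 2 log2 units, well beyond the spread between arrays, was reached by 2785 genes, or 37.2% of all, and 190 genes lay at least 6 units above. Only 17 receptor genes were called, a number that the choice of the 95th percentile largely fixes. Olfr1055 alone among them stood more than 2 units above, at 6.92 to 7.07 on the 3 arrays. A second class with little expected expression, 129 genes of tissue-restricted families such as defensins and keratinocyte envelope proteins, held 40 called genes, and 5 of these reached 2 units. The 95th percentile of that class was 5.80 against 4.30 for the receptors, so a call between those levels rests on which class is taken as silent. Promoters of the receptor genes were poor in GC, with a median of 33.7% against 60.3% for called genes. The base composition of the probes themselves is not in the files used, and its part in the background level was not tested.

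**Figure D1:**
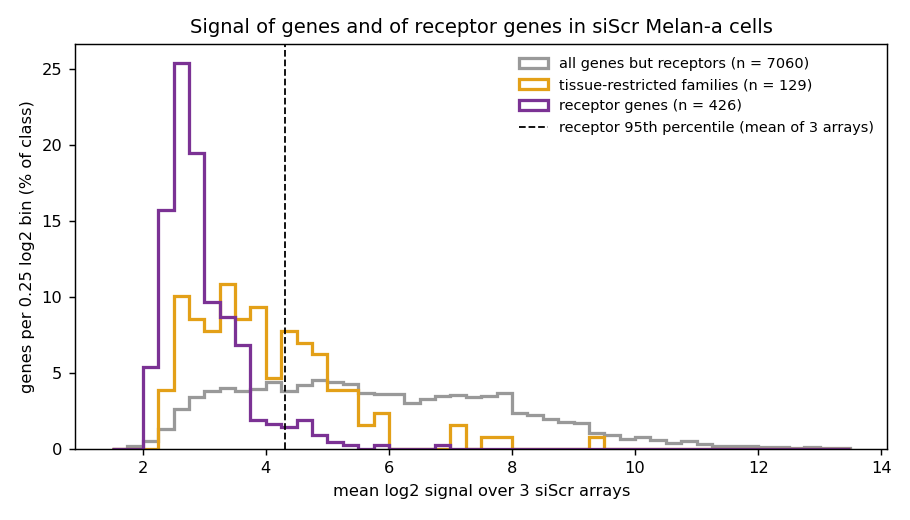
Mean log2 signal over the 3 siScr arrays (x axis) against the share of each class per bin (y axis, percent), for 426 receptor genes, 129 genes of other tissue-restricted families and all genes but receptors. The dashed line is the receptor 95th percentile, and most genes lie to its right while receptors peak near 2.79.

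Promoter sequences were set beside these calls, since a motif read by Mitf, the master regulator of the lineage, is known from promoters of pigment genes. The 250 bases before the RefSeq start (GRCm38.p6) are shown for the pigment genes Tyrp1, Slc24a5, Slc7a11 and Mlph because each holds CATGTG or CACGTG, with the match in capitals (CACATG is CATGTG on the other strand). Tyrp1 is at chr4:80833963-80834212 (plus strand), Slc24a5 at chr2:125067877-125068126 (plus), Slc7a11 at chr3:50443614-50443863 (minus) and Mlph at chr1:90914850-90915099 (plus).
Tyrp1: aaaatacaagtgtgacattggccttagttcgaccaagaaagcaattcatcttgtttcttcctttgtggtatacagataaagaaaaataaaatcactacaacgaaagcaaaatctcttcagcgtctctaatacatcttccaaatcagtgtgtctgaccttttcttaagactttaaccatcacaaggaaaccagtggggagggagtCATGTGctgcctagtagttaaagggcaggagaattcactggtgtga
Slc24a5: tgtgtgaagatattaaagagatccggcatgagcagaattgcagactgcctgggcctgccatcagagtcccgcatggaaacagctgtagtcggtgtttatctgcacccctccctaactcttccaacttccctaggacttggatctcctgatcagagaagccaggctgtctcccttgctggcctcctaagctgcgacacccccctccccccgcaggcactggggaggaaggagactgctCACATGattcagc
Slc7a11: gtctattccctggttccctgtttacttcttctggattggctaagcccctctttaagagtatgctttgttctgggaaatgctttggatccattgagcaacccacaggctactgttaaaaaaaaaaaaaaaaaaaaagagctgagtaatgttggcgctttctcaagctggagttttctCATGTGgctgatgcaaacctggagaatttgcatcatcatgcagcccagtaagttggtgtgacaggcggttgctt
Mlph: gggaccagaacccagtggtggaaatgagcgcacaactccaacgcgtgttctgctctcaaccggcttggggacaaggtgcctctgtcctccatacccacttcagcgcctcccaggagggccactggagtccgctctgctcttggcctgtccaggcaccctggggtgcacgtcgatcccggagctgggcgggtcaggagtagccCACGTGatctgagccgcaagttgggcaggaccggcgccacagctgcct

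The match began 46 bases before the start in Tyrp1, 13 in Slc24a5, 74 in Slc7a11 and 48 in Mlph. In Tyrp1, Slc24a5 and Slc7a11 the letters read TCATGTG, a longer form that contains CATGTG. Over the window from 250 bases before to 50 after the start, both strands, TCATGTG was found in 3 of 31 called genes of the melanosome, transport and other melanocyte lists, or 9.68%, and in 2.27% of all 2862 called genes with a promoter entry. Over all 27025 RefSeq promoters the share was 3.74%. CATGTG was in 7 of the 31, or 22.6%, against 9.02% of called genes and 14.1% of all promoters. CACGTG was in 4 of the 31, or 12.9%, against 9.15% and 7.24%. In genes not called, without receptors, the shares were 4.63% for TCATGTG, 16.6% for CATGTG and 4.63% for CACGTG. In receptors they were 5.92%, 18.5% and 3.14%, so CATGTG and TCATGTG were less frequent in called genes than in these 2 classes. With the list of transcription factors added, which makes 41 genes, TCATGTG was in 3, or 7.32%, CATGTG in 8, or 19.5%, and CACGTG in 5, or 12.2%. These are matches of letters and were given no test. Mcoln3, Ptgds, Cst3 and Gsn, all more than 5 log2 units above background, held neither motif in the 250 bases.

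A broader difference between genes called and not called was in CpG pairs, which vertebrate genomes keep mainly in promoters of widely used genes. Below, CG pairs are in capitals in Ube2c, the brightest cell division gene (chr2:164769679-164769928, plus strand), and in Olfr1297, a receptor that was not called and whose CpG content is closest to the receptor median (chr2:111622073-111622322, minus strand).
Ube2c: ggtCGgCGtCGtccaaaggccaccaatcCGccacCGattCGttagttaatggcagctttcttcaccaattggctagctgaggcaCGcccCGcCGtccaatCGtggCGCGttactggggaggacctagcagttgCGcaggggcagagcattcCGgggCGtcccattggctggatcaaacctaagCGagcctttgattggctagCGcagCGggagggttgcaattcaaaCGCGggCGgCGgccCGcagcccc
Olfr1297: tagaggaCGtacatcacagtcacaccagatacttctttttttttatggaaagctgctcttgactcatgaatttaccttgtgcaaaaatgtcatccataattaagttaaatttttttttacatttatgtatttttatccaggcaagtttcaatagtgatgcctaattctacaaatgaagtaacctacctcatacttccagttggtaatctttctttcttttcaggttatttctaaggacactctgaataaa

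Ube2c held 23 CG pairs in this stretch and Olfr1297 held 1. The median ratio of observed to expected CpG was 0.72 in 2862 called genes, 0.25 in 734 genes not called and 0.12 in 287 receptors. A ratio above 0.6 was found in 64.5% of called genes, in 15.3% of those not called and in 1.05% of receptors. Among called genes, 31 cell division genes had a median of 0.90 and the 31 genes of the melanosome, transport and other melanocyte lists 0.51 (0.58 in the 41 with transcription factors). Tyrp1 was at 0.225, Slc24a5 at 0.269 and Ptgds, a prostaglandin D synthase, at 0.0804. TATAAA, the letters of the TATA box, was in 6.88% of called genes, 24.7% of those not called, 46.0% of receptors and 14.2% of all RefSeq promoters (both strands).

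**Figure D2:**
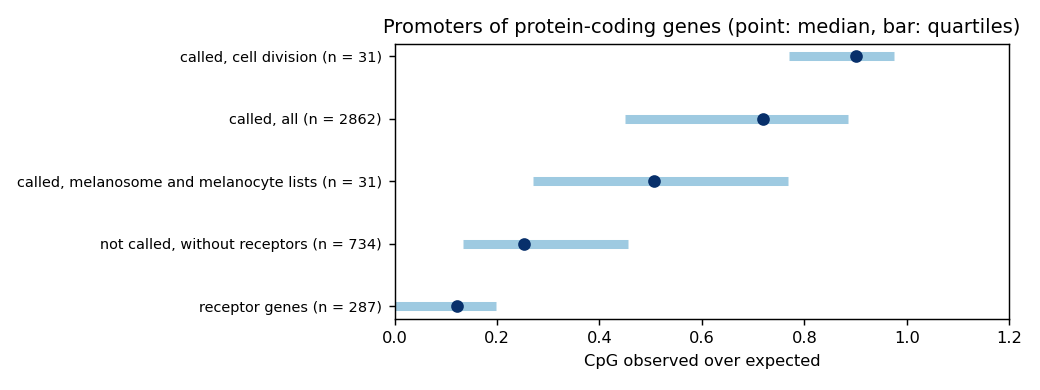
Ratio of observed to expected CpG (x axis) in the promoters of 5 classes of protein-coding genes, as medians (points) and quartiles (bars). Medians run from 0.12 in receptors to 0.90 in called cell division genes, with the pigment cell lists at 0.51.

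The 4 genes taken as markers of the lineage were all far above background on every array. Tyrp1, an enzyme of eumelanin synthesis and a major melanosome membrane protein, read 12.85, 12.73 and 12.92 log2 units the highest signal among the named genes. It stood 8.53 above the receptor percentile (SD 0.10, n = 3, limma adjusted p = 1.3e-11). The SDs given here are of the log2 signal, while limma tested the distance from the percentile. Slc24a5, the potassium-dependent sodium and calcium exchanger whose loss lightens the coat, read 10.73, 10.39 and 10.73, or 6.31 above (SD 0.20; limma, adjusted p = 5.3e-11). Pax3, a transcription factor of the neural crest, read 10.54, 10.52 and 10.63, or 6.26 above (SD 0.05; limma, adjusted p = 2.4e-11). Mlph, melanophilin, the adaptor that ties Rab27a to the myosin motor, read 10.32, 10.20 and 10.46, or 6.02 above (SD 0.13; limma, adjusted p = 4.1e-11). Of the 16 nearest measured protein-coding genes on either side of the 4 markers, 13 were called, against 78.4% of protein-coding genes without receptors. The 3 not called were Ptprd, next to Tyrp1 on chromosome 4, with a mean of 3.86, and Ctxn2 and Slc12a1, beyond Slc24a5 on chromosome 2, with means of 3.72 and 3.59.

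All 10 measured genes of melanin synthesis and the melanosome were called, against 65.4% of all genes and 78.4% of protein-coding genes without receptors. At least 2 units above stood 8 of them, against 37.2% of all genes. Every list count here and below is to be read beside these shares. The lists were chosen with earlier results of these data known. Mcoln3, a cation channel of endosomes and lysosomes, read 10.01, 9.35 and 9.95 and was lowest at passage 54. Hps3, a subunit of the complex that sorts cargo to melanosomes, read 8.36, 8.09 and 8.23. Slc31a1, the copper importer, whose metal tyrosinase needs, read 7.79, 7.78 and 7.87, with arrays nearly equal. Bloc1s6, a subunit of the BLOC-1 sorting complex, had a mean 2.74 above background, and Abcb6, a transporter of the endosome and melanosome, 2.57 above. The lowest was Slc7a11, the cystine importer that feeds red pheomelanin, at 5.36, 5.95 and 5.43, which is 1.28 above the receptor percentile and under the 5.80 of the other tissue-restricted families.

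The transport machinery was also called throughout, in 6 of 6 measured genes, against 78.4% of protein-coding genes without receptors. Of these 6 genes, 4 stood at least 2 units above. Beside Mlph, Dync1i2, an intermediate chain of the dynein motor, stood 3.91 above background and Rab13, a small GTPase, 2.69. Mreg, melanoregulin, which acts in melanosome movement and transfer, read 6.37, 6.33 and 6.44. Rab17, a GTPase of recycling endosomes with a part in melanosome release, stood 1.68 above. Sytl1, a Rab27 effector, was nearest to background, at 5.36, 5.25 and 5.26.

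Of the transcription factors of the lineage, 12 of 12 were called, against 78.4% of protein-coding genes without receptors, and 10 reached 2 units. Bnc2, a zinc finger protein linked to pigmentation, read 8.44, 8.16 and 8.24, and Creb1, which answers cyclic AMP, read 8.28, 8.30 and 8.29. Tfap2b, an AP-2 factor of the neural crest, varied most in the list, at 7.51, 7.83 and 7.05. Lef1, a partner of beta-catenin, read 7.15, 6.83 and 7.07. Foxd3, which holds neural crest cells in the glial and undifferentiated state and represses the pigment fate, read 6.98, 6.87 and 6.80, 2.58 above background. Sox2, a factor of stem cells and Schwann precursors, was the dimmest, at 5.33, 5.12 and 4.95, and lay under the 5.80 of the other tissue-restricted families.

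Other genes known from melanocytes or nearby lineages were called in 19 of 20 cases, against 78.4% of protein-coding genes without receptors. Of these 20 genes, 15 stood at least 2 units above. Ptgds read 10.88, 10.91 and 11.01. Cst3, cystatin C, a secreted inhibitor of cathepsins, read 10.60, 10.88 and 10.71, and Gsn, the actin-severing gelsolin, read 10.29, 10.29 and 10.42. All 3 genes stood more than 6 units above background. Capn3, a calpain with splice forms in melanocytes, was not called, at 4.05, 4.04 and 4.05, and Birc7, an apoptosis inhibitor of melanoma, stood 0.41 above.

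**Figure D3:**
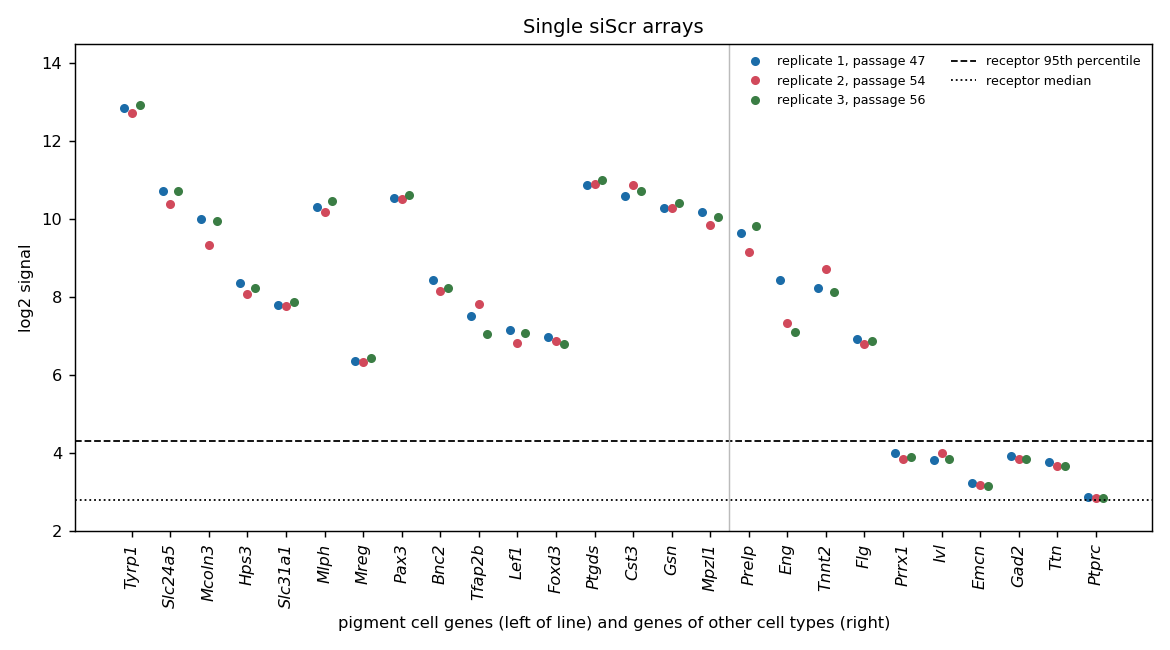
Log2 signal (y axis) on each siScr array for 16 pigment cell genes and 10 genes of other cell types, with the receptor 95th percentile (dashed) and median (dotted). Genes were picked from the lists for display. The 16 pigment cell genes shown lie above 6. Some other members of their lists do not, such as Slc7a11, Sox2 and Capn3, with means of 5.58, 5.13 and 4.05. Prrx1, Ivl, Emcn, Gad2, Ttn and Ptprc lie under the dashed line on every array, and Prelp, Eng, Tnnt2 and Flg lie above it.

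Signalling genes around pigmentation were mixed. Of 26 genes 23 were called, or 88.5%, against 78.4% of protein-coding genes without receptors, and 14 reached 2 units. Among ligands, Edn3, the endothelin that melanoblasts need, stood 1.10 above background, Wnt4 1.93 and Bmp7 1.26, while Fgf7, a growth factor of stromal cells, was not called at a mean of 3.30. Among receptors, Fzd7, a Wnt receptor, read 9.26, 9.17 and 9.13, and Notch2 read 7.81, 8.08 and 7.77. Erbb4, a neuregulin receptor, was not called, at 3.69, 3.59 and 3.56. Downstream, the gamma-secretase subunits Ncstn and Aph1a stood 4.92 and 4.23 above, and Atrn, attractin, an accessory receptor for agouti protein, read 8.46 on all 3 arrays. Prkacb, a catalytic subunit of protein kinase A, read 8.83, 8.69 and 8.88.

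Genes of the phorbol ester and early response, in cells kept in TPA, were called in 23 of 24 cases, or 95.8%. The share of protein-coding genes without receptors was 78.4%. Of the 24 genes, 21 reached 2 units. Ccn1, a matrix protein and early response gene, read 10.54, 11.45 and 10.59. Mcl1, which blocks apoptosis, read 9.83, 9.86 and 9.92, and Id1, an inhibitor of helix-loop-helix factors, 9.02, 9.38 and 9.23. Spred1, a brake on Ras signalling, stood 4.47 above background, and Prkcq, a protein kinase C isoform, 3.51. Rgs2, a brake on G protein signalling, was the exception, at 3.91, 3.70 and 3.78, and was not called. No culture without TPA is in the series, so the part of TPA in these levels was not tested.

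Adhesion genes were called in 18 of 20 cases, or 90%, and all 25 matrix genes were called. Of protein-coding genes without receptors 78.4% were called. Itgav, the alpha V subunit of vitronectin receptors, read 9.12, 9.31 and 9.03, Itga6, a laminin receptor subunit, 8.52, 8.32 and 8.41, and Tln1, talin, which links integrins to actin, 9.41, 9.57 and 9.42. Itgb6, an epithelial integrin subunit, was not called, at a mean 0.77 below the receptor percentile. The matrix list had 13 of 25 genes at least 2 units above, led by Fn1, fibronectin, at 10.95, 10.72 and 10.41, and by Lamc1, the gamma 1 laminin chain, at 9.19, 9.26 and 9.04. Npnt, nephronectin, a ligand of alpha 8 integrin, stood 4.28 above, and Itga8 itself 1.61. Matrix genes were lowest on the array of passage 56 in 19 of 25 cases, against 1392 of all 4894 called genes.

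Of the lists for other cell types, immune, keratinocyte, neuronal and endothelial markers had a smaller share called than all genes, and muscle, fibroblast and glial markers a larger one. However, the muscle share of 83.3% and the fibroblast share of 81.2% lay near the 78.4% of protein-coding genes without receptors. Of 16 immune genes 9 were called, all within 1.22 log2 units of the receptor percentile, and the pan-leukocyte gene Ptprc read 2.86, 2.85 and 2.83, at the receptor median. Mean levels of the whole immune list were 4.43, 4.43 and 4.40. Of 14 keratinocyte genes 8 were called but only Flg reached 2 units, and Ivl, involucrin, was below background on all arrays, with list means of 4.70, 4.70 and 4.73. Neuronal genes were called in 7 of 13 cases, none of them 2 units above, and their list means were 4.43, 4.31 and 4.33.

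Endothelial genes were called in 6 of 11 cases, with list means of 4.90, 4.74 and 4.73. Emcn and Tek, which define vessels, were below background, yet Eng, a co-receptor for TGF-beta, read 8.43, 7.33 and 7.10 and was highest at passage 47. Muscle genes were called in 10 of 12 cases, 2 of them at least 2 units above. These were Tnnt2, a troponin of heart muscle, at 8.22, 8.71 and 8.14, and Des, the filament protein desmin, at 6.79, 7.06 and 6.84, whereas Ttn, titin, was not called.

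Fibroblast markers were called in 13 of 16 cases, near the share of protein-coding genes without receptors. Only 5 reached 2 units, or 31.2% against 37.2% of all genes. The list means were 5.82, 5.91 and 5.71. Prelp, a leucine-rich matrix protein, read 9.65, 9.16 and 9.83, and Mxra8 read 7.74, 8.38 and 7.67. Prrx1, Fap and Grem1 were not called, and Col3a1, the fibrillar collagen of stroma, stood 1.79 above. The part of other cells in the cultures was not tested. In bulk RNA, a few cells with much of a transcript and many cells with little of it cannot be told apart.

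Of 14 listed markers of Schwann cells and glia, the sister lineage of melanocytes, 5 were measured. All 5 were called, against 78.4% of protein-coding genes without receptors. Pmp2, a fatty acid binding protein of myelin, read 8.60, 7.98 and 8.61. Cdh19, a cadherin of Schwann precursors, read 8.05, 7.85 and 8.08, and Nes, nestin, 7.74, 7.49 and 7.71. Foxd3 and Sox2, given above, complete the list. They are also counted among the transcription factors of the lineage, and Pmp2 and Cdh19 among the other genes known from melanocytes. The glial list is therefore not separate from the melanocyte lists.

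Genes of proliferation stood well clear of background. All 33 cell division genes were called and all stood at least 2 units above background, with a median distance of 3.77. This list, like the others, was chosen with earlier results of these data known, so its count is a description without a test. Ube2c, the ubiquitin-conjugating enzyme that ends mitosis, read 9.45, 9.91 and 9.88, Tpx2, which activates Aurora A on the spindle, 9.48, 9.61 and 9.85, and Aurka itself 8.66, 9.04 and 9.08. All 21 replication genes were called and 20 reached 2 units. Mcm6, a subunit of the replicative helicase, read 9.18, 9.60 and 9.59, and Pcna, the sliding clamp, 9.21, 9.43 and 9.53.

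The inhibitors of the cell cycle and targets of p53 were expressed beside them, with 13 of 13 called and all at least 2 units above. The Ink4 locus on chromosome 4 encodes inhibitors that are often lost in immortal cell lines, and there Cdkn2a read 7.05, 7.03 and 6.96, Cdkn2b 7.31, 7.25 and 7.06 and the flanking gene Mtap 8.54, 8.82 and 8.80. All 3 were well above background. The files do not say which transcript of Cdkn2a the probe set reads, and a signal there does not show a working protein.

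**Figure D4:**
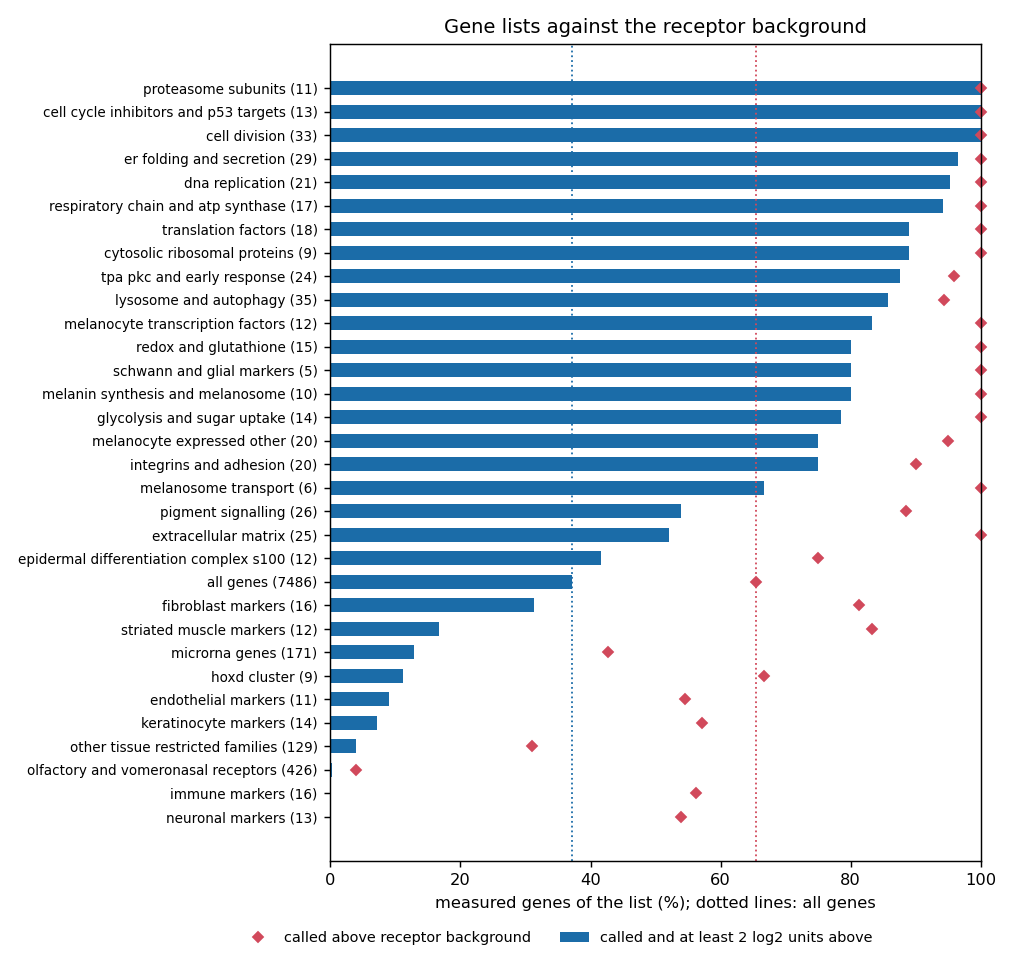
Share of measured genes (x axis, percent; number measured in brackets) in each list that was called above the receptor background (diamonds) and that was also at least 2 log2 units above it (bars). Cell division, proteasome and inhibitor lists reach 100% on both measures, and immune and neuronal markers have no bar. The dotted lines are all genes, at 65.4% and 37.2%. Lists were chosen with earlier results of these data known.

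Genes of lysosomes, secretion, redox balance and sugar use were called almost throughout. Of 35 lysosome and autophagy genes 33 were called and 30 reached 2 units. Ctsz, cathepsin Z, read 10.88, 10.84 and 10.94, and Ctsa, the protective protein of lysosomal enzymes, 10.15, 10.21 and 10.24. The cathepsins of macrophages and osteoclasts, Ctss at a mean of 4.30 and Ctsk at 4.22, were not called. All 29 genes of the endoplasmic reticulum were called, led by the folding enzyme Pdia3 at 10.85, 10.81 and 10.92.

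Redox genes were called in 15 of 15 cases. Txn1, thioredoxin, read 10.38, 10.68 and 10.55, and Cat, catalase, which destroys the hydrogen peroxide that melanin synthesis releases, 10.49, 10.46 and 10.59. Gstm1, a glutathione transferase, read 10.61, 10.30 and 10.55, but its family shares long stretches of sequence and the probe set may read several members. In sugar metabolism 14 of 14 genes were called, with the glucose importer Slc2a1 at 9.45, 9.61 and 9.53 and the monocarboxylate carrier Slc16a1 at 8.47, 8.50 and 8.48.

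In the Hoxd cluster, which patterns the trunk and limbs, 6 of 9 genes were called, or 66.7%. The share was 65.4% over all genes and 78.4% over protein-coding genes without receptors. The only Hoxd cluster gene 2 units above was Mtx2, a mitochondrial import gene at the edge of the cluster, which read 7.95, 8.28 and 8.18. Hoxd1, Hoxd10 and Hoxd13 were not called. In the S100 cluster of calcium-binding proteins on chromosome 3, 9 of 12 genes were called, or 75%, which lies between the same 65.4% and 78.4%. S100a1 read 8.47, 8.44 and 8.42, S100a4 8.06, 8.77 and 8.26, and S100a8, a gene of neutrophils, was below background at 2.81, 2.90 and 3.17.

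Very bright signals also came from RNA that is not protein-coding. Rmrp, the RNA of the RNase MRP enzyme, read 12.27, 12.65 and 12.67. Of the 20 brightest named genes, 8 were processed copies of ribosomal protein genes such as Rpl18-ps1, whose near-identical parents mean that the signal cannot be assigned to the copy. Among protein-coding genes, Hspa8, a constitutive chaperone that the gene table puts on chromosome 9, read 12.66, 12.77 and 12.77. Whether its probe set reads that locus alone was not tested. Long noncoding RNA genes were called in 40.8% of 834 cases, pseudogenes in 65.4% of 1282 and zinc finger genes named Zfp in 41 of 45.

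MicroRNA genes were called in 73 of 171 cases, or 42.7%, under the share of all genes. The files do not say whether such a probe set reads the hairpin, the host transcript or the mature form. The genes named here were picked after their values were seen. Mature sequences from RefSeq (GRCm38.p6) are shown for the brightest, Mir1954, and for 3 genes of widely conserved families that stood at least 2 units above background, with the seed, bases 2 to 8, in capitals.
miR-1954: aCUGCAGAgugagacccuguu
miR-30c-5p: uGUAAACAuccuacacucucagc
miR-130a-3p: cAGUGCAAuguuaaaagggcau
miR-92b-3p: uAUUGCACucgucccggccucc

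The Mir1954 probe set read 12.11, 12.00 and 12.12. Mir30c-2 had a mean of 6.89, Mir130a of 6.46 and Mir92b of 6.45, and the 4 seeds shown differ from each other. Mir30c-1, another gene with the same mature miR-30c-5p, had a mean of 4.74, only 0.43 above background. Mir30a and Mir30e, whose 5p forms have the same seed, had means of 5.24 and 4.94. Mir32 and Mir367, with the seed of miR-92b-3p, were not called. A mature sequence was found for 95 of the 171 genes. In the multicopy families Mir466, Mir467, Mir669 and Mir297, 18 of 68 genes were called, and 55 of the 103 others. In all, 28 microRNA genes fell into 7 groups with identical values on all arrays, the largest of 9 genes, so these copies were not measured apart.

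The spread between the 3 control arrays was small for most genes. The median SD of called genes was 0.088 log2 units, the 95th percentile 0.239, and 3583 called genes, or 73.2%, varied over less than 0.25 units. Among genes above 10 units the steadiest were Csrp1, a LIM protein of the actin cytoskeleton, at 10.43, 10.46 and 10.43, Serinc3 at 11.02, 10.99 and 11.04 and Hdlbp, vigilin, at 10.40, 10.39 and 10.43. An SD above 0.4 was found in 41 called genes, or 0.838%.

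Several of these belong to gene families known from the interferon response. Ifi207 read 6.70, 8.63 and 8.03, Ifi204 8.35, 10.03 and 8.98 and Ifi211 7.54, 9.09 and 8.13. These are HIN-200 proteins, a family that senses nucleic acids in nucleus and cytosol. Ifih1, the sensor of long double-stranded RNA, read 6.06, 7.41 and 6.34, and Gbp3, a guanylate-binding protein, 6.29, 7.46 and 6.36. In each of the 5 genes replicate 1, passage 47, was lowest and replicate 2, passage 54, was highest.

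To see how far this went, 22 measured genes were gathered, from the HIN-200 and guanylate-binding families, sensors and enzymes of foreign nucleic acids, nuclear body proteins and the genes B2m and Ifi44l, after the values above were seen, which makes the count a description without a test. Of the 41 called genes with an SD above 0.4, 12 are in this list, or 29.3%. Of its members 18 were called, and all 18 were highest on the array of passage 54. On that array they exceeded passage 47 by 0.288 to 1.93 log2 units, with a median of 1.14. Ddx58, the RNA sensor RIG-I, read 7.72, 8.56 and 7.86, and B2m, the light chain of class I antigen presentation, read 11.88, 12.21 and 12.07. Among all called genes 2027 of 4894, or 41.4%, were highest on this array. Members of the HIN-200 and guanylate-binding families resemble each other closely, so some of these probe sets may read a neighbour's transcript. All 3 cultures had received control siRNA, and RNA integrity was 9.8 at passage 54 and 10.0 in the others. The part of passage, RNA quality or handling was not tested.

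Other genes with a wide spread were of mixed function. S100a6, calcyclin, read 5.55, 7.09 and 5.79, Atp1b1, a subunit of the sodium pump, 6.91, 8.16 and 7.20, and Ddr2, a collagen receptor, 5.85, 6.97 and 6.31. Of the 20 named called genes with the largest SD, which include interferon-related genes given above, 18 were highest at passage 54 and 17 lowest at passage 47. Among all called genes these shares were 41.4% and 43.0%. Eng ran the other way, highest at passage 47.

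Smaller shifts ran through whole lists. Cell division genes were lowest at passage 47 in 31 of 33 cases and highest at passage 56 in 30, and their median deviations from the mean were -0.17, 0.01 and 0.17 log2 units at passages 47, 54 and 56. Replication genes were lowest at passage 47 in 20 of 21 cases, with median deviations of -0.17, 0.07 and 0.09. Of all 4894 called genes, 2103, or 43.0%, were lowest at passage 47. After quantile normalization of the arrays, cell division genes were lowest at passage 47 in 24 of 33 cases and highest at passage 56 in 30, their median at passage 54 turned to -0.04, and 1523 of all called genes were lowest at passage 47.

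Ribosomal protein genes were highest at passage 54 in 8 of 9 cases and respiratory chain genes in 16 of 17, with median deviations of 0.15 and 0.12 there. Among the ribosomal genes Rpl35 read 10.64, 11.14 and 10.86. The 10 melanosome genes had median deviations of -0.03, 0.01 and 0.01, but did not move together. At passage 54, 5 of them were highest and 5 were lowest, and the median SD of the list was 0.103. With 1 siScr array at each passage, these differences were not tested.

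**Figure D5:**
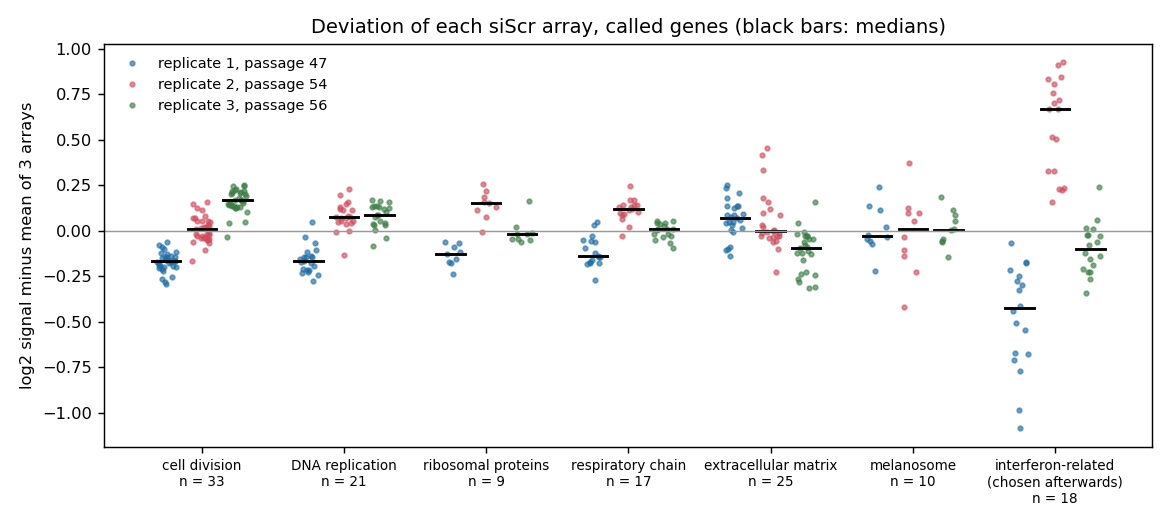
Log2 signal of each siScr array minus the gene's mean over the 3 arrays (y axis) for called genes of 7 groups, with medians as black bars. Cell division genes have medians of -0.17 at passage 47 and 0.17 at passage 56, and the interferon-related genes, chosen afterwards, all sit above 0 at passage 54. Medians of the melanosome genes lie near 0, with single genes on both sides.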

How the data were processed

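Total RNA of Melan-a cells was measured on Clariom D arrays. The authors deposited 1 log2 signal per probe set and array. The submitters' processing notes name Affymetrix Expression Console. For its version, background correction, normalization and build, nothing is given in the sources used. The table held 16383 probe sets, of which 7530 had 1 gene symbol in the platform annotation, 455 had several and 8398 had none. Symbols were updated through the RefSeq gene table (230 changed), and for 43 genes with several probe sets the one with the highest mean was taken.

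From the log2 signal of each probe set the same array's 95th percentile of the receptor genes was subtracted. limma 3.58.1 (R 4.3.3; lmFit and eBayes, intercept only) tested on the 3 siScr arrays whether the mean exceeded 0, one-sided, with Benjamini-Hochberg adjustment over all probe sets. The code was tested on simulated data. The number of arrays limits the precision, and the p-values cover only the spread between these 3 cultures. Errors are SDs of the log2 signal over the arrays.

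Members and gene lists were chosen with earlier results of these data known. Lists were counted beside all genes, with no set test. Genes were named by a rule: the 4 markers, in each list up to 6 called members farthest from background and up to 4 nearest to or below it, called members of the lists for other cell types, called receptors, the 20 brightest, the 20 called genes of largest SD, the 10 steadiest above 10 log2 units and the 3 nearest to background on each side. Predicted gene models were not named. Genes outside it, among them most microRNA genes, the genes of the interferon response beyond the largest SDs, neighbours of the markers and some list members chosen for their known role, were chosen after their values were seen. CpG ratios and motifs were counted in RefSeq promoters (GRCm38.p6), which matched 3872 of 4555 protein-coding genes.

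Alternatives were other background classes and percentiles, call rules, scalings, probe set choices and left-out arrays. Each siDicer array shares its replicate number and passage with a siScr array, per the labels. Deviations from the group means correlated at 0.436, 0.406 and 0.24 between arrays of the same number and at -0.337 to -0.038 between others, so the numbers pair the samples, and a fit over all 6 arrays with the number as a replicate block was run.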

Additional observations from a re-analysis of the deposited data

How the results depend on the processing

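The background class mattered most. With the other tissue-restricted families in place of receptors, 3097 genes were called rather than 4894, and the counts became 16 for matrix, 7 for fibroblast, 1 for keratinocyte, 0 for immune, 1 for endothelial, 0 for neuronal and 2 for muscle markers, 1 for the Hoxd cluster, 30 for microRNA genes and 5 for those families themselves. Slc7a11 (-0.22), Birc7 (-1.09), Bmp7 (-0.23), Edn3 (-0.40), Sox2 (-0.67) and Sytl1 (-0.51) then lay below background. With the 99th percentile of receptors the counts were 4 for keratinocyte, 1 for immune, 3 for endothelial, 1 for neuronal and 6 for muscle markers, 47 for microRNA genes and 13 for the other tissue-restricted families, and Birc7 stood at -0.38. With the 90th percentile those families had 64 called genes, and Capn3 (0.33), Ctsk (0.50), Ctss (0.58), Fap (0.40), Gad2 (0.15), Grem1 (0.38), Hoxd1 (0.32), Ivl (0.17), Prrx1 (0.19), Ptprd (0.14) and Tek (0.21) were called. With only probe sets above the table median, 3 neuronal genes were called. Leaving out 1 array in turn gave 4820 to 4860 called genes. The replicate block gave 4880 called genes, 13 sugar metabolism genes in place of 14 and 74 microRNA genes in place of 73, and changed no other list count and no call of a named gene.

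Signal over background limits what these arrays show: genes between 4.30 and 5.80 log2 units depend on which silent class is taken, and a gene not called here may be expressed below the reach of its probes. On the siScr arrays, 170 probe sets repeat the values of another probe set, so these were not measured apart. There is 1 siScr array per passage.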
